A study of Mus musculus with 4 samples.

Results

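Glucocorticoid receptors and the genes that these receptors are known to drive were examined in the mouse hippocampus. The set holds 32 genes picked by name: both corticosteroid receptors, 3 genes that set how strongly the hormone acts on them, and 27 established targets. They were picked with earlier results of these data known. A gene was measured by its transcript row with exactly 1 gene symbol, and by the row with the highest mean over the arrays where there were several. By that rule 29 of the 32 genes had a row, out of 19938 genes on the array. Cdkn1a, which encodes a cell cycle inhibitor, was only on a row shared with another symbol, and Arl4d, a small GTPase, and Nedd9, a scaffold of focal adhesions, had no listed row, so these 3 genes have no value here. RNA was taken from the dissected hippocampus of male C57BL/6JJmsSlc mice aged 11 to 12 weeks. The R-SDS group (repeated social defeat stress, 2 arrays) met an aggressive male of the ICR strain for 10 min on each of 10 days. Social isolation for a week came before the first defeat, and the pairs were reshuffled daily. Until the next defeat each mouse stayed beside an ICR male behind a divider with holes, exposed to its sight, sound and smell. The Control group (2 arrays) lived in pairs on either side of a divider, with a new partner every day and no defeat. By the schedule of the study, the hippocampus was collected some days after the last defeat, following a social test and a sucrose preference test. The values therefore do not show the state during or right after a defeat. The study calls the R-SDS mice on its arrays susceptible, meaning that they avoided an ICR mouse in a social test, whereas the sample labels state only whether a mouse was stressed.

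Corticosterone, the main glucocorticoid of mice, is released from the adrenal cortex during stress. It crosses cell membranes and binds the mineralocorticoid receptor and the glucocorticoid receptor, which wait in the cytoplasm in a complex with the chaperone HSP90 and then enter the nucleus and bind DNA. The hippocampus carries both receptors at high levels and takes part in shutting the hormone response off again. Fkbp5, Sgk1, Tsc22d3 and Klf9 are textbook readouts of this pathway in brain.

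Values are log2 expression values after robust multi-array averaging (RMA), so that a difference of 1 is a 2-fold change. The tissue carried markers of hippocampal neurons. Prox1, a marker of dentate granule cells, was at 8.38 and 8.47 in R-SDS 1 and 2, against 8.49 and 8.30 in Control 1 and 2. The 4 arrays correlated at 0.988 to 0.996 over the rows with 1 symbol. The spread of values followed the replicate number, with an interquartile range of 3.37 (R-SDS 1) and 3.34 (Control 1) in the number 1 arrays, but 3.11 (R-SDS 2) and 3.06 (Control 2) in the number 2 arrays. The labels do not say whether a number stands for a litter, a day or a batch, nor that the mice of a group came from separate cages, and the p-values below measure the spread between these samples only. Each mean rests on 2 arrays, and this number limits its precision. In whole tissue, fewer cells of a type and less RNA per cell cannot be told apart.

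The comparison asked whether the receptors and their targets differed between R-SDS and Control hippocampi. Both receptors had means close to the Control means, and most targets were slightly higher on average in R-SDS mice. Of the 29 measured genes, 23 were higher and 6 lower on average in R-SDS mice, where 53.5% of all genes were higher. The median log2 difference over the 29 genes was 0.16, against 0.01 over all genes, and single genes ranged between -0.08 and 0.42. Without R-SDS 1, 12 of 29 genes were higher and the median was -0.02, against 0.0006 over all genes. The share of all genes that were higher without R-SDS 1 was not counted. The thresholds that the study applied (beyond 0.5 on the log2 scale, unadjusted p under 0.05) were passed in limma by 0 of the 29 genes and by 0.34% of all rows, and the methods' t-test also gave 0. After Benjamini-Hochberg adjustment over all 21789 rows limma called 0 of the 29 genes and 0% of all rows, and each of the 29 had an adjusted p of 1. At an unadjusted p under 0.05 limma counted 0 of the 29 genes and 0.983% of all genes, and the methods' t-test counted 0 of the 29. The smallest unadjusted p of the 29 genes in limma was 0.0802, for Tgm2, and the smallest in the methods' t-test was 0.0533.

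Both R-SDS arrays lay above both Control arrays for 7 of the 29 genes, where 9.52% of all genes were placed that way. The 7 were Sgk1, Tgm2, Errfi1, Klf15, Map3k6, Zbtb16 and Arrdc2. Map3k6 and Arrdc2 were on dim rows, and a filter that left out rows below the median level kept only the other 5. Both R-SDS arrays lay below both Control arrays for 0 of the 29, against 8.81% of all genes. For the remaining 22 genes the groups overlapped. The moderated standard errors of the 29 differences ran between 0.13 and 0.33, and 10 of the 29 differences were larger than their own standard error. The share of all genes with such a difference was not counted, so this number is no result about the set. All 29 intervals at the 95% level included 0.

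**Figure D1:**
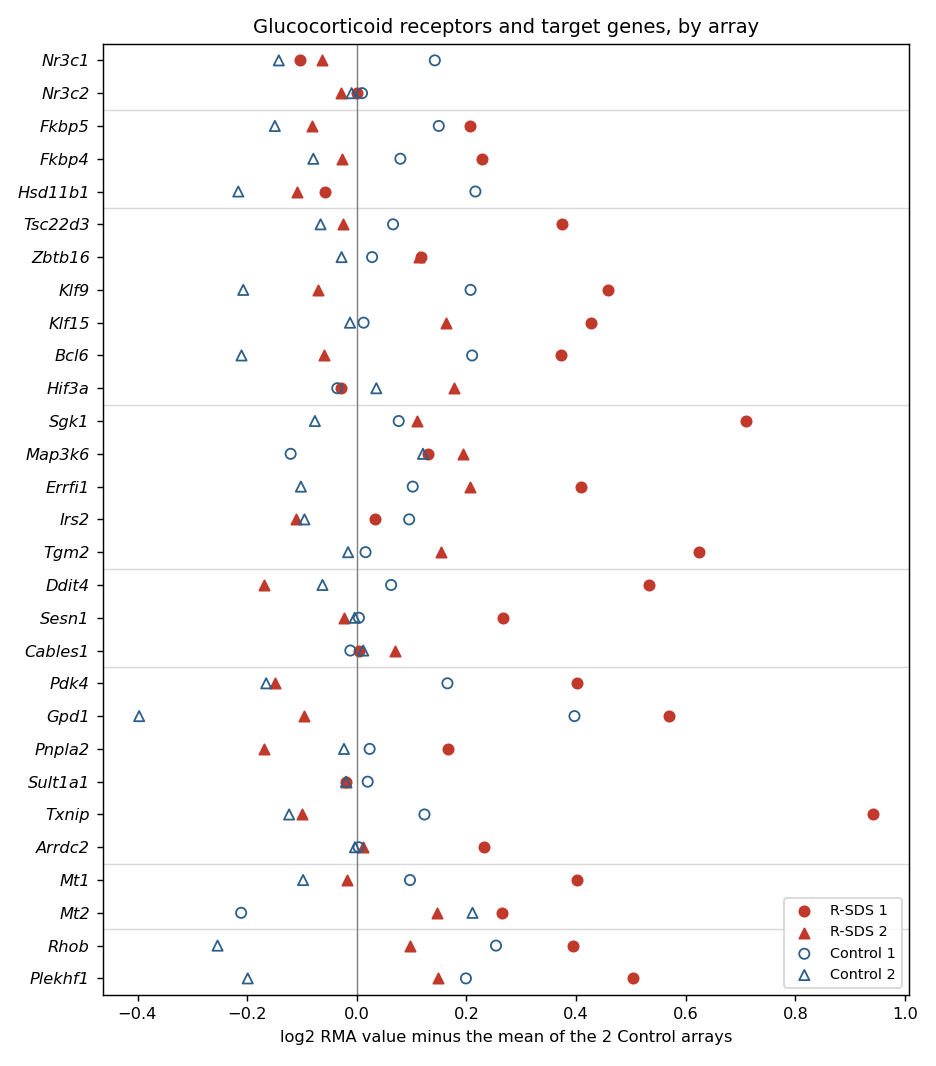
Each of the 29 measured genes in the 4 arrays, as the log2 RMA value minus the mean of the 2 Control arrays (filled red circles, R-SDS 1; filled red triangles, R-SDS 2; open blue circles, Control 1; open blue triangles, Control 2), with grey lines between groups of genes by role. R-SDS 1 has the highest of the 4 values for 21 of the 29 genes, against 29.9% of all genes. R-SDS 2 lies between the 2 Control values for 15, above both for 9 and below both for 5. These placements of R-SDS 2 were not counted over all genes, so they are no result about the set.

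The values of both receptors overlapped between the groups. Nr3c1, the glucocorticoid receptor, was at 8.62 and 8.66 in R-SDS 1 and 2, against 8.87 and 8.59 in Control 1 and 2. Both R-SDS values lay between the 2 Control values. Its log2 difference was -0.08 ± 0.15 (moderated SE, n = 2 each), with a 95% interval of -0.45 to 0.28. Nr3c2, the mineralocorticoid receptor, which binds corticosterone more tightly and is occupied already at resting hormone levels, was at 8.98 and 8.95 in R-SDS mice and at 8.99 and 8.97 in Control mice. The 4 values of Nr3c2 spanned a narrow range and overlapped, with a log2 difference of -0.01 ± 0.13 and an interval of -0.32 to 0.30.

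The groups also overlapped for all 3 genes that tune hormone action. Fkbp5 encodes a co-chaperone that lowers the hormone affinity of the receptor and is itself induced by it, which closes a feedback loop. It was at 7.81 and 7.52 in R-SDS 1 and 2, against 7.75 and 7.45 in Control 1 and 2. The number 1 array was above the number 2 array in both groups by about the same amount (0.29 in R-SDS and 0.30 in Control mice), while the difference between the groups was 0.06 ± 0.17. Fkbp4, a related co-chaperone that favours transport of the receptor into the nucleus, was at 8.63 and 8.38 in R-SDS mice and at 8.48 and 8.32 in Control mice, and its difference was 0.10 ± 0.15. Hsd11b1, the enzyme that regenerates active corticosterone inside cells, was at 7.05 and 7.00 in R-SDS mice, against 7.33 and 6.90 in Control mice. Here the 2 Control mice differed by 0.43, more than the group difference of -0.08 ± 0.18.

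The mean of R-SDS mice was the higher one for all 6 transcription regulators (median log2 difference 0.17), and the groups did not overlap for 2 of them. Without R-SDS 1 the means of Tsc22d3, Klf9 and Bcl6 were below the Control means, and the median of the 6 genes was 0.04. Klf15, a Kruppel-like factor that controls amino acid metabolism, was at 7.80 and 7.54 in R-SDS 1 and 2, against 7.39 and 7.36 in Control 1 and 2. Its log2 difference was 0.29 ± 0.15, with an interval of -0.07 to 0.66 that includes 0, and it was 0.16 without R-SDS 1. Zbtb16, a zinc finger repressor strongly induced by glucocorticoids in many cell types, was at 9.70 and 9.69 in R-SDS mice and at 9.61 and 9.55 in Control mice. The R-SDS arrays were close to each other and above both Control arrays, yet the difference of 0.12 ± 0.13 was smaller than its standard error. Tsc22d3, which encodes the glucocorticoid-induced leucine zipper that dampens inflammatory signalling, was at 6.59 and 6.19 in R-SDS mice, against 6.28 and 6.15 in Control mice. Only R-SDS 1 stood above the Control range of Tsc22d3, and the difference was 0.17 ± 0.17. Klf9, a Kruppel-like factor induced by corticosterone in hippocampal neurons, differed by 0.19 ± 0.23, Bcl6, a repressor known from lymphocytes, by 0.16 ± 0.21, and Hif3a, a hypoxia-inducible factor subunit, by 0.07 ± 0.14, and the groups overlapped for all 3.

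Sgk1, the serum- and glucocorticoid-regulated kinase that keeps ion channels and transporters at the cell surface, is shown with promoter sequence, since it was among the genes with the largest difference and was the sole measured gene whose window held a complete receptor motif. The glucocorticoid response element was searched on both strands as the 6-base arms AGAACA and TGTTCT set 3 bases apart, in RefSeq windows of 300 bases (250 before and 50 after a transcript start, build GRCm38.p6). All 12 arm bases matched in 3 of 32851 windows (0.009%), and 10 or more in 1.845%. Sgk1 has 6 such windows for its alternative starts. The complete match lies at chr10:21993640-21993939 on the + strand, from position -189 relative to the start, and a match of 10 of 12 bases lies in the window chr10:21985854-21986153 on the + strand, from position -183. Capitals mark the matched 15 bases, arms and spacer.
Sgk1, complete match: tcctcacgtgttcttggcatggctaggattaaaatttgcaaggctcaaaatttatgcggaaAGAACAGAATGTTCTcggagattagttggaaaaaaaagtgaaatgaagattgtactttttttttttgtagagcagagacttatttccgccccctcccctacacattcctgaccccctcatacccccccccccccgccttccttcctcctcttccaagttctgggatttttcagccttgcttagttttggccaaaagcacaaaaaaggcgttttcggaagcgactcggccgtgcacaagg
Sgk1, 10 of 12 bases: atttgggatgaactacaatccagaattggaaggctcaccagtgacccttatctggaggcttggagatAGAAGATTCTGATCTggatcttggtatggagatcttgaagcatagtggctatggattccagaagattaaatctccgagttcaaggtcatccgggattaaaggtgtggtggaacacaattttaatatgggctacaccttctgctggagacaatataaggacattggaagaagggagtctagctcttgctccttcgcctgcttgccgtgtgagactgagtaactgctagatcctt
A match is a string of letters and not a measured site, and the array row does not tell which start was used.

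Of 5 measured kinases, adaptors and signalling enzymes 4 were higher on average in R-SDS mice, and the groups did not overlap for those 4. The median log2 difference over all 5 was 0.31, and 0.15 without R-SDS 1. Sgk1 was at 8.46 and 7.86 in R-SDS 1 and 2, against 7.82 and 7.67 in Control 1 and 2. R-SDS 1 was far above the Control arrays and R-SDS 2 just above the higher of them. The difference was 0.41 ± 0.22 (1.33-fold, interval 0.919 to 1.92, adjusted p = 1 in limma). Tgm2, a transglutaminase that cross-links proteins, was at 7.22 and 6.75 in R-SDS mice and at 6.61 and 6.58 in Control mice. Its difference of 0.39 ± 0.19 (1.31-fold, interval 0.957 to 1.79) likewise rested more on R-SDS 1. Without R-SDS 1 the difference was 0.11 for Sgk1 and 0.15 for Tgm2.

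Errfi1, an adaptor that inhibits the epidermal growth factor receptor, was at 9.24 and 9.04 in R-SDS 1 and 2, against 8.93 and 8.73 in Control 1 and 2. In contrast to Sgk1 and Tgm2, it differed by the same amount within both replicate numbers (0.31 within number 1 and 0.31 within number 2), and the group difference was 0.31 ± 0.15 (1.24-fold, interval 0.959 to 1.60). Map3k6, a kinase at the head of a stress-activated cascade, was at 5.69 and 5.75 in R-SDS mice and at 5.44 and 5.68 in Control mice. Only a small gap parted R-SDS 1 of Map3k6 from Control 2, and the difference of 0.16 ± 0.15 was 0.04 without Control 1. Irs2, an adaptor of the insulin receptor, was at 7.80 and 7.65 in R-SDS mice, against 7.86 and 7.67 in Control mice, and the groups overlapped with a difference of -0.04 ± 0.14.

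**Figure D2:**
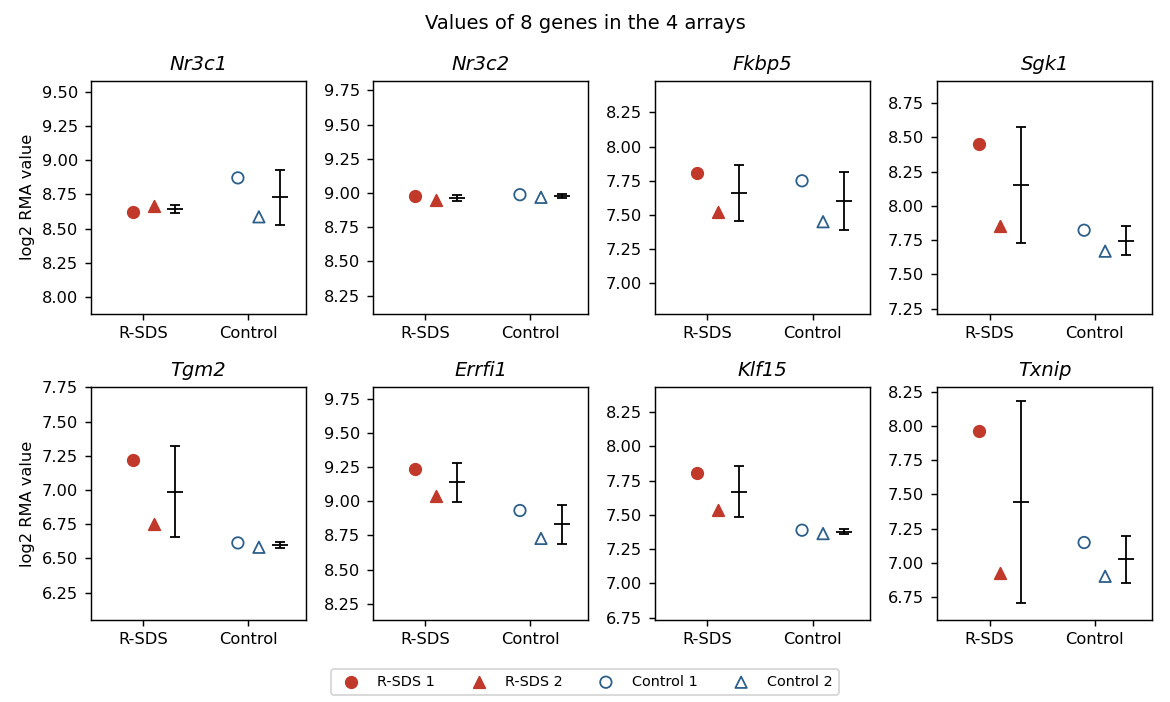
Log2 RMA values of 8 genes in the 4 arrays (filled red, R-SDS 1 and 2; open blue, Control 1 and 2; circles, number 1; triangles, number 2), each panel on an axis of the same length, with the mean and SD of the 2 arrays beside the points. Sgk1, Tgm2, Errfi1 and Klf15 have both R-SDS points above both Control points, whereas the points of Nr3c1, Nr3c2, Fkbp5 and Txnip overlap.

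All 3 measured genes of growth arrest were higher on average in R-SDS mice. Ddit4, an inhibitor of the mTOR complex that glucocorticoids and hypoxia induce, differed by 0.18 ± 0.24 between the groups, by 0.47 within number 1 and by -0.11 within number 2. Sesn1, a sestrin that also restrains mTOR, differed by 0.12 ± 0.15, again with 0.26 within number 1 and -0.02 within number 2. Without R-SDS 1 both turned lower (-0.17 for Ddit4 and -0.02 for Sesn1). Cables1, which couples cyclin-dependent kinases to other kinases, differed by 0.04 ± 0.13, and for it R-SDS 2 was the higher R-SDS array. The groups overlapped for all 3 genes, whose median log2 difference was 0.12.

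Of the 6 genes of metabolism and arrestins, 4 had a higher mean, with a median log2 difference of 0.12. Txnip, an arrestin that binds thioredoxin and limits glucose uptake, had the largest difference of the 29 genes. It was at 7.97 and 6.93 in R-SDS 1 and 2, against 7.15 and 6.90 in Control 1 and 2. R-SDS 1 alone stood apart, since R-SDS 2 lay between the Control arrays, and the 2 R-SDS mice differed by 1.04 where the groups differed by 0.42 ± 0.33. Without R-SDS 1 the difference of Txnip was -0.10. Arrdc2, an arrestin-domain protein, was at 6.35 and 6.13 in R-SDS mice and at 6.12 and 6.11 in Control mice. The groups of Arrdc2 did not overlap, but R-SDS 2 exceeded Control 1 by a small fraction of the group difference of 0.12 ± 0.14. After quantile normalisation the groups of Arrdc2 overlapped, and the difference without R-SDS 1 was 0.01.

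The groups overlapped for the other 4 metabolic genes. Gpd1, the cytosolic glycerol phosphate dehydrogenase of oligodendrocytes, was higher in the number 1 array than in the number 2 array, by 0.67 in R-SDS and by 0.79 in Control mice, and its group difference was 0.24 ± 0.32. Pdk4, a kinase that inactivates pyruvate dehydrogenase, differed by 0.13 ± 0.22. Pnpla2, the adipose triglyceride lipase, differed by -0.0016 ± 0.16, with 0.14 within number 1 and -0.15 within number 2. Sult1a1, a phenol sulfotransferase, was at 6.11 and 6.11 in R-SDS mice, against 6.15 and 6.11 in Control mice. The same value stood in 3 of the 4 arrays for Sult1a1, and its difference was -0.02 ± 0.13.

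Mt1 and Mt2 encode metallothioneins, small cysteine-rich proteins that bind zinc and copper and respond to metals as well as to glucocorticoids. Their promoter windows are shown because the neighbouring pair carries the metal response element, whose core was searched as TGCACNC or TGCGCNC on both strands and is in capitals. The windows lie at chr8:94178839-94179138 (Mt1) and chr8:94172368-94172667 (Mt2), both on the + strand, in build GRCm38.p6 of RefSeq.
Mt1: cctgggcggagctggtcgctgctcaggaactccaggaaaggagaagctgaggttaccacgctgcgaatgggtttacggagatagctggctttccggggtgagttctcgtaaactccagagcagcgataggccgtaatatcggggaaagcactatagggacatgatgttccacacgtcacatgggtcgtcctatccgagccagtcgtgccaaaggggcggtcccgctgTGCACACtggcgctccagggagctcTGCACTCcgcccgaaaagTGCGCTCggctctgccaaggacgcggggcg
Mt2: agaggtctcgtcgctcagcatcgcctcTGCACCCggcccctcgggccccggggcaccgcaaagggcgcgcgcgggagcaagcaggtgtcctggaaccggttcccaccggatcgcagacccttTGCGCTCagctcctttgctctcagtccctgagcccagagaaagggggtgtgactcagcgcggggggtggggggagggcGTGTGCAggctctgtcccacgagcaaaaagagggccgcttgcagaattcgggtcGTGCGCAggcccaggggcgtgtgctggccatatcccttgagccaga
The window of Mt1 held 3 cores and that of Mt2 held 4, while at least 1 core was found in 25.7% of all windows and 4 or more in 0.517%.

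The arrays were not in the same order for the metallothionein pair. Mt1 was at 12.51 and 12.09 in R-SDS 1 and 2, against 12.21 and 12.01 in Control 1 and 2. R-SDS 1 was highest and R-SDS 2 lay between the Control arrays, with a difference of 0.19 ± 0.18. Mt2 was at 11.96 and 11.84 in R-SDS mice and at 11.48 and 11.91 in Control mice. For Mt2 the outlying array was Control 1, which was low, and the difference was 0.21 ± 0.18 between the groups, 0.48 within number 1 and -0.06 within number 2.

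Both measured genes of small GTPases and endosomes had a higher mean within both replicate numbers. Plekhf1, an endosomal adaptor, was at 6.14 and 5.78 in R-SDS 1 and 2, against 5.83 and 5.43 in Control 1 and 2. The number 1 arrays were higher in each group, so the groups overlapped although R-SDS exceeded Control in either number, with differences of 0.30 (number 1) and 0.35 (number 2). The group difference of Plekhf1 was 0.33 ± 0.20 (1.25-fold, interval 0.896 to 1.75), and it was 0.15 without R-SDS 1 and 0.13 without Control 2. Rhob, a GTPase that directs endosomal traffic, differed by 0.25 ± 0.21, with 0.14 within number 1 and 0.35 within number 2.

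**Figure D3:**
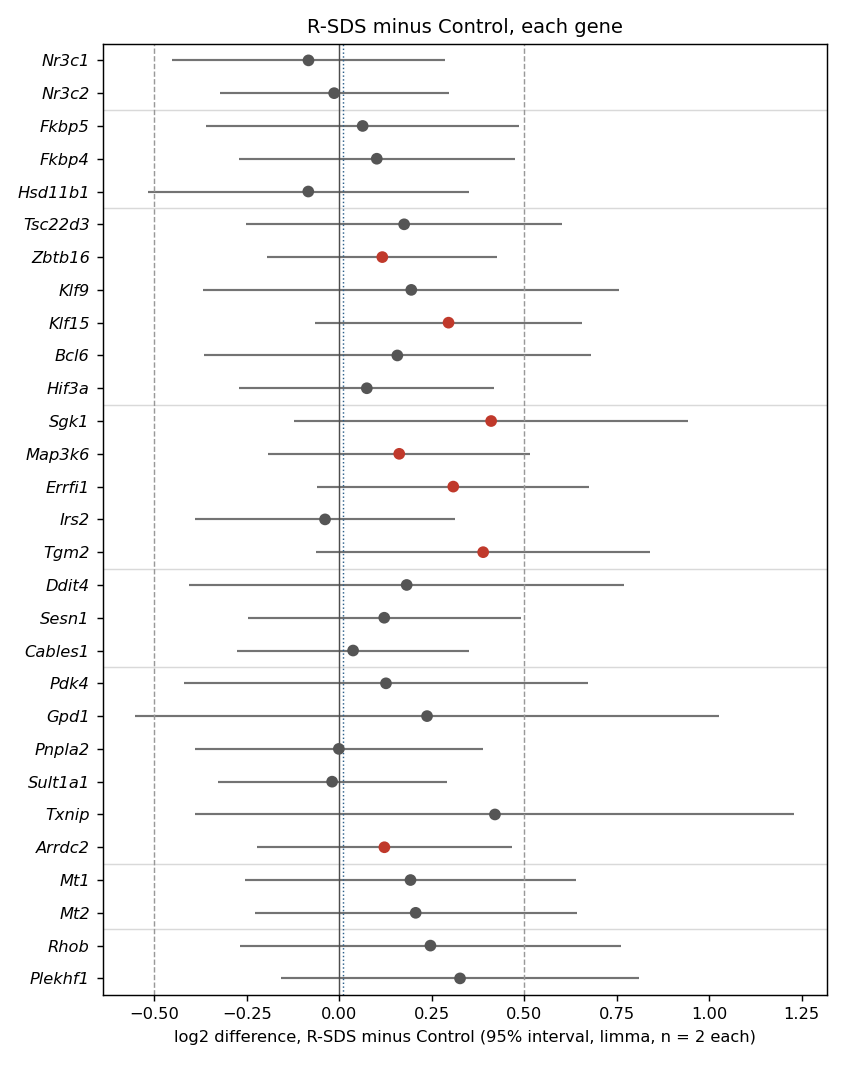
Log2 difference, R-SDS minus Control, of each of the 29 measured genes (points) with the 95% interval of limma (lines, n = 2 each), in red where the groups did not overlap. Dashed lines mark 0.5 in either direction and the dotted line the median of all genes, 0.01, and every interval includes 0.

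Since the values followed the replicate number, R-SDS and Control were also compared within each number. R-SDS exceeded Control in 24 of the 29 genes within number 1 and in 22 within number 2, where 10508 and 10474 of all 19938 genes did. It did so within both numbers for 20 genes, where 27.8% of all genes did. The size differed between the pairs of arrays, with a median log2 difference of 0.23 within number 1 and 0.07 within number 2. Whether the 2 pairs differ was not tested, as each rests on 1 array per group. The difference within number 1 was the larger one for 17 of the 29 genes, near the share over all genes (10135 of 19938). For Errfi1, Plekhf1, Rhob and Gpd1 the difference within number 2 was at least as large, whereas Txnip, Sgk1, Tgm2, Mt2, Ddit4 and Klf15 had most of theirs within number 1.

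**Figure D4:**
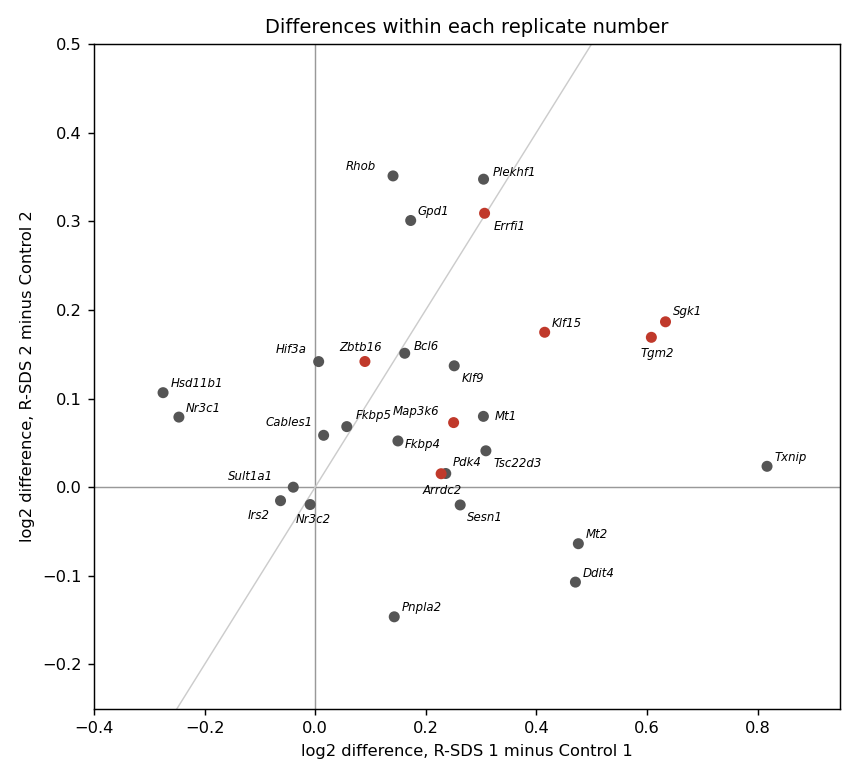
Log2 difference of each of the 29 genes within replicate number 1 (R-SDS 1 minus Control 1, horizontal) and within number 2 (R-SDS 2 minus Control 2, vertical), in red where the groups did not overlap, with a grey line of equal differences. Of the 29 genes, 20 lie above 0 on both axes. Txnip, Ddit4, Mt2, Sgk1 and Tgm2 lie far to the right of the line, Ddit4 and Mt2 with values below 0 within number 2.

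R-SDS 1 had the highest value of the 4 arrays for 21 of the 29 genes, where it had for 29.9% of all genes. Control 2 had the lowest for 19 of the 29, against 5925 of all 19938 genes. In both groups the number 1 array was above the number 2 array for 23 of the 29 genes, against 37.3% of all genes. In R-SDS 1 the median of the 29 genes relative to the Control mean was 0.27, and for R-SDS 2 it was -0.02. The median difference between mice of 1 group was 0.29 in R-SDS (number 1 minus number 2) and 0.15 in Control mice, beside 0.16 between the groups.

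Other genes of the pathway outside the set were examined in 4 lists. These lists were also chosen with earlier results of these data known, so they are no independent test of the set. Of 30 further genes known to be induced by glucocorticoids 29 were measured, and 26 were higher and 3 lower on average in R-SDS mice. Of all genes, 53.5% were higher. The median log2 difference was 0.10, with 0.10 within number 1 and 0.09 within number 2. Relative to the Control mean the median of this list was 0.24 in R-SDS 1 but 0.03 in R-SDS 2. R-SDS 1 was the highest array for 18 of its 29 genes, against 29.9% of all genes. The groups did not overlap for 8 genes that were higher (9.52% of all genes) and 1 that was lower (8.81%). A sole gene of this list passed the thresholds of the study in limma, Lcn2, which encodes an iron-siderophore carrier of acute inflammation that many other signals also induce. Lcn2 was at 7.80 and 6.47 in R-SDS 1 and 2, against 4.57 and 4.56 in Control 1 and 2, a difference of 2.57 ± 0.40 with an adjusted p of 1 in limma. Within number 1 it differed by 3.23 and within number 2 by 1.91. Per1, a clock gene with a known response element, differed by 0.38 ± 0.24, and Xdh, xanthine dehydrogenase, by 0.31 ± 0.15. Xdh was dim, below the lower quartile in every array but R-SDS 1.

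Genes of the machinery around the receptor had a median near 0. Among 18 of 21 measured genes of its chaperone complex and coregulators, 8 had a higher and 10 a lower mean, 0 passed the thresholds and the median was -0.0012. The largest differences there were -0.12 ± 0.14 for Crebbp, a histone acetyltransferase, 0.09 ± 0.16 for Stip1, which hands clients to HSP90, and -0.09 ± 0.13 for Ep300, a second acetyltransferase. Of 18 genes of the corticosteroid axis and of steroid handling 17 were measured, with 8 higher, 9 lower, 0 past the thresholds and a median of -0.02. Crhr1, the main receptor of corticotropin-releasing hormone, was at 6.84 and 6.78 in R-SDS 1 and 2, against 7.13 and 7.04 in Control 1 and 2. Both R-SDS arrays of Crhr1 were below both Control arrays and the difference was -0.27 ± 0.13, with an adjusted p of 1 in limma. Avpr1a, a vasopressin receptor, differed by -0.26 ± 0.17 and Cyp11b1, which makes corticosterone in the adrenal gland, by -0.25 ± 0.15. Both were dim, with Avpr1a at 4.93 to 5.47 and Cyp11b1 at 4.20 to 4.63. In every array Cyp11b1 lay below the lower quartile of the rows with 1 symbol (4.88 to 5.08). Without detection calls, expression of these genes in the tissue cannot be read from such values.

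The means of inflammatory genes that the receptor is known to repress were evenly placed, but several of these genes were dim. All 14 were measured, 7 with a higher and 7 with a lower mean in R-SDS mice, 0 past the thresholds and a median log2 difference of 0.02. Vcam1, an adhesion molecule of endothelium, differed by 0.39 ± 0.25 with 0.66 within number 1 and 0.13 within number 2. Ccl3, a chemokine, differed by -0.34 ± 0.22 and Tnf, the tumour necrosis factor, by 0.22 ± 0.20. Tnf lay below the lower quartile of the rows with 1 symbol in every array but R-SDS 2. Il6 (1.75 to 2.14), Il1a (3.86 to 4.44), Il1b (4.27 to 4.89) and Cxcl10 (4.41 to 4.84) lay below it in every array. For such dim genes a difference near 0 does not show that expression was unchanged.

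Several marker lists of other cell types moved with R-SDS 1, the array that carried most of the higher values of the receptor targets. Of 12 markers of choroid plexus epithelium 10 were measured, and all 10 were highest in R-SDS 1. Averaged over these markers, the log2 value was 8.83 for R-SDS 1 and 5.72 for R-SDS 2, against 6.37 in Control 1 and 5.59 in Control 2. Relative to the Control mean, the median marker of choroid plexus was at 2.67 in R-SDS 1, but at -0.22 in R-SDS 2. This median was 0.56 and -0.17 for meningeal fibroblasts (8 of 8 measured), 0.31 and -0.08 for brain endothelium (11 of 12), 0.31 and 0.05 for mural cells (10 of 10), and 0.22 and -0.01 for astrocytes (10 of 10) in R-SDS 1 and 2. Erythroid markers were at 0.64 and -0.0022, but only 3 of 6 were measured. Markers of hippocampal neurons (12 of 12) were at 0.08 and -0.03, of microglia (9 of 10) at 0.03 and 0.01, of oligodendrocytes (9 of 10) at -0.0029 and -0.12, and genes of hepatocytes and plasma (9 of 10) at -0.45 and -0.23. Gjb6 stands both among the astrocyte markers and among the further induced genes, and Ttr both among the choroid plexus markers and the plasma genes. Log2 array values have no 0 and the file gives no detection calls, so absence of a marker cannot be read from them. The part of these cell types in the values of the receptor targets was not tested.

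**Figure D5:**
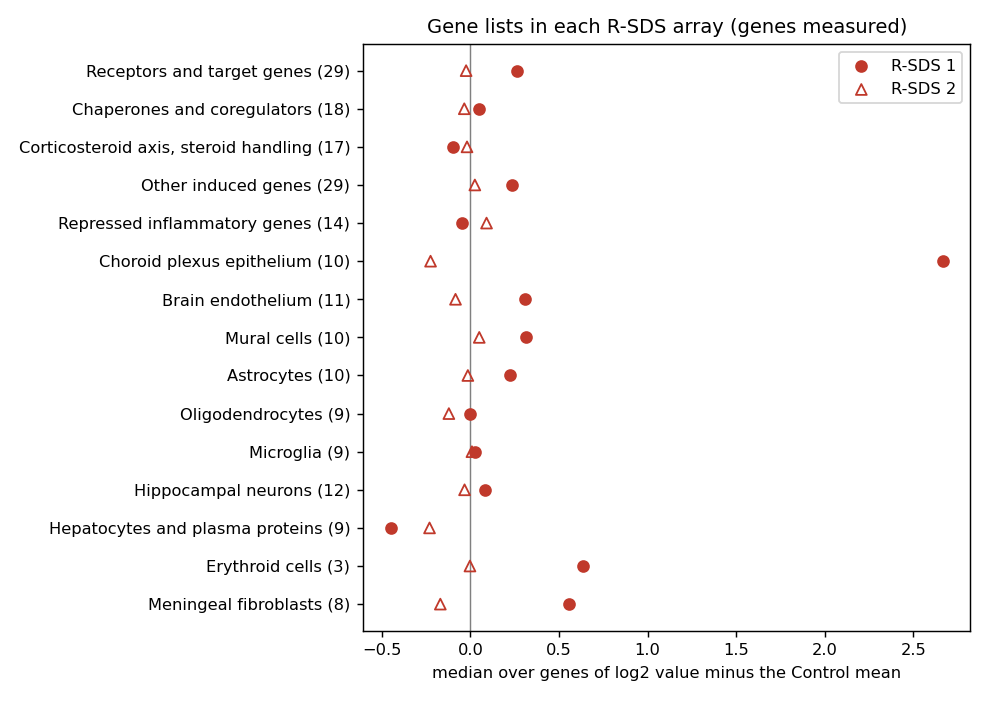
Median over genes of the log2 value minus the Control mean in R-SDS 1 (filled circles) and R-SDS 2 (open triangles), for the 29 receptors and targets, 4 further pathway lists and 10 marker lists, with the number of measured genes in parentheses. The receptors and targets are at 0.27 in R-SDS 1 and -0.02 in R-SDS 2, and the choroid plexus markers at 2.67 and -0.22.

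Among the promoters of the set, 27 of 32 genes had 38 windows in the RefSeq table. No window was listed for Nr3c1, Cables1, Gpd1, Tgm2 and Zbtb16. At least 1 arm AGAACA or TGTTCT was found in 6 of these 38 windows, of Bcl6, Sgk1, Sult1a1 and Tsc22d3, and in 19.0% of all windows. A response element match of 10 or more of 12 bases was present for Sgk1 and for Sult1a1. Sgk1 had both R-SDS arrays above both Control arrays, and Sult1a1 did not. For the other genes of the set these letters were not in the windows examined, which says nothing about the receptor at more distant sites. At least 1 metal response element core was present in 10 of the 38 windows, beside 25.7% of all windows.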

How the data were processed

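Total RNA of 4 hippocampi was hybridised to Affymetrix whole-transcript mouse arrays, 1 array per mouse. The deposited table holds log2 values that the authors made with RMA (background correction, normalisation and probe summary) in Affymetrix Expression Console, per the labels. The sources name different labelling kits. For the genome build of the array annotation, the sources used here give nothing. The values carry no depth.

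Groups were taken from the sample titles. Of 35556 rows, 21789 had 1 symbol (19938 genes), 1621 had several and 12146 had no gene symbol listed. Of the rows with 1 symbol, 99.6% had an Entrez identifier that matched RefSeq. The groups were compared by limma 3.58.1 in R 4.3.3 over all rows with 1 symbol, with no block, 2 residual and 4.07 prior degrees of freedom, two-sided p-values, Benjamini-Hochberg adjustment and a threshold of 0.05. For the cut-offs of the study (0.5 on the log2 scale and an unadjusted p of 0.05) the p of limma was used. Intervals are 95% intervals. The genes and lists were chosen with earlier results of these data known. All genes of the set are given, array by array for receptors, hormone activation, Sgk1, Tsc22d3, the metallothioneins, genes without overlap and the 4 largest differences per direction, with up to 3 genes of each further list. Same-numbered arrays deviated together over rows (r = 0.517), but with 2 pairs the numbers were not taken to pair the mice. Quantile normalisation, a filter on dim rows, the methods' t-test, a replicate block, an intensity trend, the mean of all rows of a gene and leaving out each array were tried. The fit was tested on simulated data. Figures were drawn with matplotlib 3.10.9.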

Additional observations from a re-analysis of the deposited data

How the results depend on the processing

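Differences of the 29 genes kept their sign under quantile normalisation, the mean of all rows of a gene, the replicate block and, for the 22 genes left by it, the filter on dim rows (rows below the median level left out). Of all rows, 74 passed the thresholds of the study, 6 with that filter and 19 with the methods' t-test, and leaving out 1 array gave 174 to 739. Past an adjusted p there were 0 rows, and 0 to 49 with 1 array left out. With R-SDS 2 left out the median log2 difference of the 29 genes was 0.27, against 0.01 over all genes. The largest single differences of the 29 were then 0.94 for Txnip, 0.71 for Sgk1 and 0.62 for Tgm2. Genes whose groups did not overlap numbered 7, with 8 after quantile normalisation (without Arrdc2, with Cables1 and Hif3a), and 14 to 22 with 1 array left out, where 3 arrays separate more often by construction (10453 to 12859 of 19938 genes). The median difference of 0.16 became -0.024 to 0.27, the lowest without R-SDS 1. In these fits the lone array of a group is assumed to vary like the others. With 1 array left out, 19 genes changed sign under at least 1 choice of array: Nr3c1 ranged from -0.23 to 0.059, Nr3c2 from -0.029 to 0.00051, Fkbp5 from -0.087 to 0.21, Fkbp4 from -0.027 to 0.23, Hsd11b1 from -0.30 to 0.13, Tsc22d3 from -0.025 to 0.37, Klf9 from -0.070 to 0.46, Bcl6 from -0.059 to 0.37, Hif3a from -0.029 to 0.18, Irs2 from -0.13 to 0.057, Ddit4 from -0.17 to 0.53, Sesn1 from -0.024 to 0.27, Pdk4 from -0.15 to 0.40, Gpd1 from -0.16 to 0.63, Pnpla2 from -0.17 to 0.17, Txnip from -0.10 to 0.94, Mt1 from -0.018 to 0.40, Mt2 from -0.0046 to 0.42 and Rhob from -0.0080 to 0.50. With no change of sign, Sgk1 ranged from 0.11 to 0.71, Tgm2 from 0.15 to 0.62, Errfi1 from 0.21 to 0.41, Klf15 from 0.16 to 0.43, Map3k6 from 0.041 to 0.28, Arrdc2 from 0.012 to 0.23, Cables1 from 0.0036 to 0.070 and Plekhf1 from 0.13 to 0.53. Zbtb16 ranged from 0.088 to 0.14 and Sult1a1 from -0.040 to 0, also with no change of sign. The sign changed for 11 genes without R-SDS 1, 5 without Control 1, 6 without Control 2 and 4 without R-SDS 2.

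With the replicate number as a block, 100 rows passed the thresholds of the study, against 74 without it, and 0 passed an adjusted p. Unadjusted p-values under 0.05 were then reached by 1047 rows (4.81%), against 221 (1.01%), and by 5 of the 29 genes (Plekhf1, Errfi1, Sgk1, Tgm2 and Klf15), against 0. The smallest adjusted p of the 29 was 0.96 and none passed the thresholds.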
